A study of Mus musculus with 3 samples.

Results

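Reactive oxygen and nitrogen species are made and removed by enzymes of the gut lining, and 8 genes of this chemistry are described here in the small intestine of mice. Duox2, Duoxa2, Nox1 and Nos2 belong to the oxidant sources, and Gpx1, Gpx2, Gpx4 and Txnrd1 to the enzymes that reduce peroxides and disulfides. They were chosen by symbol, 8 of the 31053 genes counted, and no measured value was part of the rule. The study built a mouse line to reach mature enteroendocrine cells (EECs), and its single-cell libraries show which cells of the gut lining express which genes. Duodenal, jejunal and ileal cells came from wild-type (WT) male C57BL/6N mice, 12 weeks old. For each segment, cells of 3 mice were pooled into 1 library, all sorted as live by exclusion of propidium iodide. No library carries an allele, a treatment or a challenge, and since the animals were pooled, no value stands for a single mouse.

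DUOX2 is an NADPH oxidase of the apical membrane that releases hydrogen peroxide into the gut lumen, and DUOXA2 is the maturation factor that takes it to the membrane. NOX1 makes superoxide and is known mainly from the colon, and NOS2 is the inducible nitric oxide synthase. The glutathione peroxidases GPX1 (cytosol), GPX2 (gastrointestinal) and GPX4 (lipid hydroperoxides in membranes) and the thioredoxin reductase TXNRD1 are selenoproteins that keep peroxides and disulfides low, and absorptive cells meet such chemistry as they move from the crypt to the tip of the villus.

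Duox2 (ENSMUSG00000068452, minus strand, chr2:122279247-122298449) and Duoxa2 (ENSMUSG00000027225, plus strand, chr2:122298900-122302885) stand head to head on GRCm38. Gpx2 (ENSMUSG00000042808, minus strand, chr12:76792333-76795554) lies inside Fntb, a gene of the opposite strand. The 250 bases before a gene's RefSeq start on GRCm38.p6 are shown for Duoxa2, since its window lies in the gap between the divergent pair, and for Gpx2, the peroxidase whose level differed most between segments. The window of Duoxa2 (chr2:122298650-122298899, plus strand) is intergenic and that of Gpx2 (chr12:76795555-76795804, minus strand) lies in Fntb. Capitals mark a TATAAA, from 30 to 25 bases before the start of Duoxa2.
Duoxa2: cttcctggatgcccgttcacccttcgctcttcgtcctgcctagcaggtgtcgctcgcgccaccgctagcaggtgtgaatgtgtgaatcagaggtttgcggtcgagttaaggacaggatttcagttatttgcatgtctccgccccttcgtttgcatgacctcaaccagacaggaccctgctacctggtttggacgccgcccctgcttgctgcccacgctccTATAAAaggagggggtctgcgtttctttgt
Gpx2: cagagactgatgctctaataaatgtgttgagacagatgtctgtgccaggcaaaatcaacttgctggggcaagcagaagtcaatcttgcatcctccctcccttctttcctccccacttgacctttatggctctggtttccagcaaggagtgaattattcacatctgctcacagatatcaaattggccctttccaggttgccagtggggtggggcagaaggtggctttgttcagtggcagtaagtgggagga

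The letter strings searched, 3 in all and on both strands, were TATAAA (the TATA box), TGACNNNGC (the core of the antioxidant response element) and TTCNNNGAA (the palindrome bound by STAT factors). Of 32817 windows of this length, 12.4% held TATAAA, 10.2% TGACNNNGC and 7.01% TTCNNNGAA. RefSeq windows matched 7 of the 8 genes by symbol, all but Nos2. Besides the TATAAA of Duoxa2, a pair of Txnrd1 windows held TTCNNNGAA and 1 of these TGACNNNGC, and the windows of Duox2, Nox1, Gpx1, Gpx2 and Gpx4 held none of the 3. The windows of Duox2 (chr2:122298228-122298477) and Gpx1 (chr9:108338830-108339079) lie mostly in an annotated exon of the same gene. Most bases before the annotated starts of Duox2 and Gpx1 were therefore not searched. The Nox1 window and some windows of Gpx4 and Txnrd1 also lie in their own gene. No match overlapped another.

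The other genes are Nox1 (chrX:134086421-134221956, minus strand), Nos2 (chr11:78920787-78960254, plus strand), Gpx1 (chr9:108338903-108340343, plus strand), Gpx4 (chr10:80047166-80056439, plus strand) and Txnrd1 (chr10:82833951-82897712, plus strand). Genes of the opposite strand overlap Duoxa2 (Duoxa1), Gpx2 (Fntb), Txnrd1 (Gm38560 and Gm47073) and Nox1 (Cstf2 and Arl13a), and genes of the same strand overlap Txnrd1 (Eid3) and Nox1 (Xkrx). Processed pseudogenes, Gpx2-ps1 and Gpx4-ps2, could share reads with their parent genes, and how the counting used such reads and strand is not given in the sources used here.

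Of the 9501, 8139 and 9595 barcodes deposited, 4255 (duodenum), 4360 (jejunum) and 8071 (ileum) lay within the study's limits on UMIs (unique molecular identifiers, each marking 1 captured transcript), genes and mitochondrial share. Clusters were named by fixed marker lists as enterocyte-like, goblet-like and so on, and are called enterocytes, goblet cells and so on below. Neither the 8 genes nor the other redox genes described below took part in the clustering. Enterocytes numbered 3203, 3297 and 4066 cells (segments are given in the order duodenum, jejunum, ileum throughout), and all 13 enterocyte markers were detected in each library. Of these markers 8, 8 and 11 were higher in enterocytes than in any other named class. Of the 11 markers of early enterocytes, 6, 5 and 8 were highest in that class. Early enterocytes also held enterocyte markers, summed to 385, 625 and 162 in every 10000 UMIs, against 641, 1133 and 1066 in enterocytes. Beside the labelled epithelial cells the libraries held T cells (36, 109 and 1093), B cells and macrophages/monocytes. Ileal enterocytes had a median of 6306 UMIs and 12.1% mitochondrial UMIs, against 12009 and 12033 UMIs and 28.9% and 29.0% in the other segments. Between 4 and 12 barcodes were shared by a pair of libraries.

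A level is the number of UMIs of the gene in every 10000 UMIs that the cells of a class or zone gave together. Its 95% interval is the exact Poisson one, that of a share of cells the exact binomial one, and both cover counting error only. Since each segment is 1 library, segments were not tested, and a gene is called between segments where its level in enterocytes differed at least 2-fold, among genes with at least 50 UMIs there. Cell classes and villus zones were compared with edgeR's quasi-likelihood test on UMIs summed per library, blocked on library, with p-values adjusted over all genes tested (Benjamini-Hochberg), and called at an adjusted p under 0.05. The p-values measure the spread between 3 libraries of different segments, not between animals.

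In enterocytes the sources of oxidant were counted in the order ileum, jejunum, duodenum. Duox2 had 0, 561 and 4470 UMIs in enterocytes of the 3 segments, or 0, 0.129 (0.119 to 0.141) and 1.37 (1.33 to 1.42) UMIs per 10000. The floor in the duodenum, 3 UMIs, corresponds to 0.000750 per 10000. The ileal level was therefore at least 1832-fold the duodenal one, and 10.6-fold the jejunal one (9.72 to 11.6). At least 1 Duox2 UMI was found in 31.2% of ileal enterocytes and in 7.76% of jejunal ones, and in 0 of 3203 in the duodenum, which at a floor of 3 cells with a UMI allows a share of up to 0.0937%. Ileal T cells, a class not known to express it, gave 3.29%, at a median of 4246 UMIs per cell against 6306 in enterocytes. With each cell thinned to 800 UMIs the shares were 9.30% in ileal enterocytes, 1.09% in jejunal ones and 0.183% in ileal T cells.

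Duoxa2, the partner of Duox2, had 4, 551 and 2350 UMIs in enterocytes, or 0.00100 (0.000272 to 0.00256), 0.127 (0.117 to 0.138) and 0.722 (0.694 to 0.752) per 10000. Its ileal level was 5.68-fold the jejunal one (5.18 to 6.24), and 723-fold the duodenal one with a counting interval of 282 to 2654. Nos2 had 0, 171 and 1520 UMIs, or 0, 0.0395 (0.0338 to 0.0458) and 0.467 (0.444 to 0.491) per 10000, so that the ileal level was 11.8-fold the jejunal one (10.1 to 14.0) and at least 623-fold the duodenal one. The intervals of the 3 segments did not overlap for any of these genes. Nox1 stood at 4, 4 and 3 UMIs in enterocytes and at 26 UMIs over the 31 sums of 10 or more cells of a class in a library, too few to compare.

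Gpx2 had the same order of segments as the oxidant sources, and Gpx1 did not. Gpx2 stood at 0.113 (0.103 to 0.124), 0.527 (0.505 to 0.549) and 1.26 (1.22 to 1.30) UMIs per 10000 in enterocytes, an 11.2-fold range from duodenum to ileum (10.1 to 12.3). Gpx1 stood at 0.652 (0.628 to 0.678), 0.153 (0.142 to 0.165) and 0.248 (0.232 to 0.266), with the duodenum 4.26-fold above the jejunum (3.91 to 4.64) and 2.63-fold above the ileum (2.43 to 2.85). Gpx4 (8.74, 13.6 and 8.01) and Txnrd1 (2.22, 1.79 and 1.56) differed less than 2-fold between any pair of segments. Of the 7 genes with enough UMIs, 5 were called between ileum and duodenum (31.8% of all 11447 genes), 4 between ileum and jejunum (18.7%) and 5 between jejunum and duodenum (21.4%). Leaving mitochondrial genes out of the totals kept Duox2 at least 1541-fold higher in the ileum than in the duodenum, and Gpx1 3.12-fold lower.

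The enterocytes of the segments fell into partly different clusters. The cluster of 796 enterocytes led by Cpn1 and Tmigd1 held 678 ileal cells, and the cluster of 309 led by the interferon-induced genes Ifit1 and Rsad2 held 200 duodenal ones. In the Cpn1 cluster Duox2 stood at 0.977 in 97 jejunal cells and at 1.41 in the ileum, with 0 UMIs in 21 duodenal cells. In the Ifit1 cluster 200 duodenal cells held 0 UMIs, and the levels were 0.204 in jejunal cells and 1.99 in 29 ileal ones. The ileal level of Duox2 was thus the highest of the 3 segments in both. In the Cpn1 cluster the ileum was not above the jejunum for Duoxa2 (0.883 against 0.922) or Gpx2 (0.753 against 0.763). For Nos2 it was higher there (0.342 against 0.00795). In the Ifit1 cluster the ileum was above the jejunum for Duoxa2 (1.60 against 0.450), and for Gpx2 the intervals overlapped (1.51 against 1.21). In the cluster led by Nt5e, Slc28a2 and Ada, Duox2 reached 3.71 in 842 ileal cells against 0.242 in 867 jejunal ones, and in the cluster led by Pck1 and Slc5a12 it stood at 0.114 and 0.00811. Nos2 had the other order, with 0.0835 in ileal cells of the Nt5e cluster, 0.764 in those of the Pck1 cluster and 0.937 in those of the cluster led by Mbl2 and Slc36a1.

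**Figure D1:**
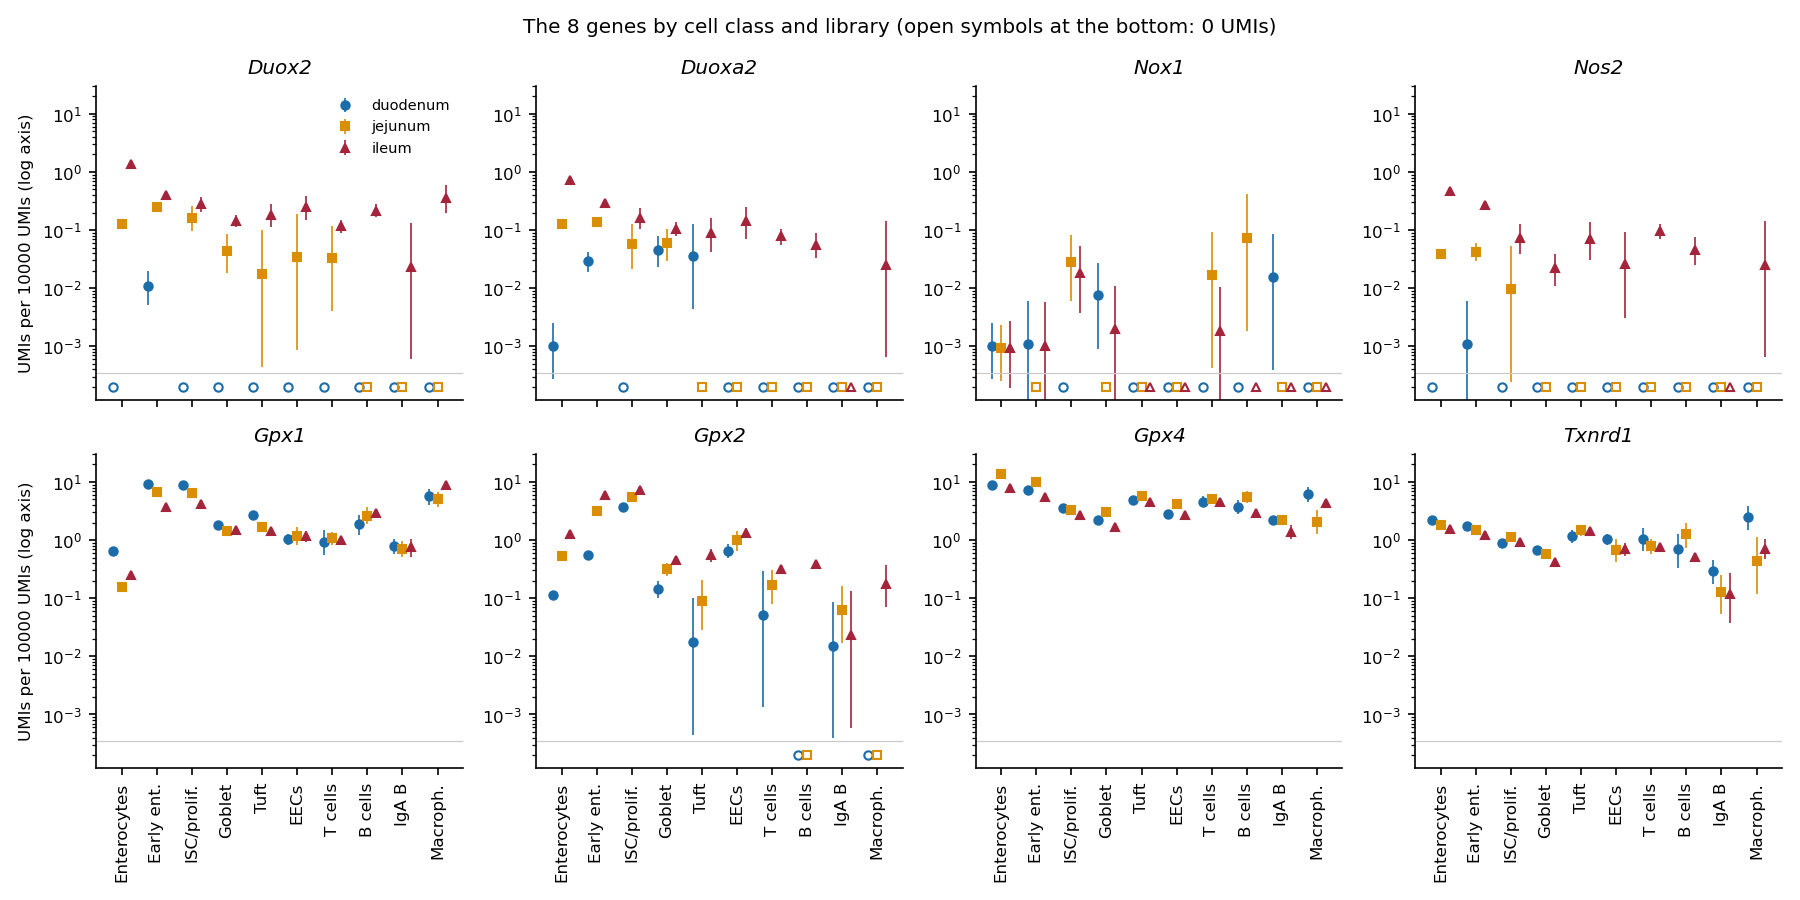
Levels of the 8 genes in 10 cell classes of the 3 libraries, in UMIs per 10000 UMIs on a log axis, with exact 95% Poisson intervals as bars. Open symbols below the grey line are sums with 0 UMIs, and the line has no value. In Duox2, Duoxa2 and Nos2 the ileal enterocytes were the highest point, and Gpx1 was lowest in enterocytes of the 3 libraries.

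By edgeR, Duox2 was higher in enterocytes than in 5 of 6 other classes and Duoxa2 than in 4, with no call for either against early enterocytes. In the ileum Duox2 stood at 0.406 UMIs per 10000 in early enterocytes, 0.278 in ISC/proliferating cells (intestinal stem cells and dividing progenitors), 0.245 in EECs, 0.185 in tuft cells, 0.143 in goblet cells, 0.216 in B cells and 0.117 in T cells, against 1.37 in enterocytes. Ileal macrophages/monocytes (36 cells) stood at 0.355. The 13 enterocyte markers, summed, stood at 1066 per 10000 in ileal enterocytes. They stood at 129 in ileal T cells, 111 in ileal B cells and 202 in ileal macrophages/monocytes. The part of enterocyte RNA in the low levels of the other classes was not tested. In the jejunum the level of Duox2 was 0.247 in early enterocytes and 0.129 in enterocytes, and 0.162 in ISC/proliferating cells, so that there enterocytes were not the highest class. In the duodenum 10 UMIs, all in 1 early enterocyte, were found in these classes.

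By edgeR, Duox2 was lower than in enterocytes in T cells (log2 fold change −3.57, SE 0.68, adjusted p = 3.8e-05), tuft cells (−2.84, SE 0.69, 0.00114), EECs (−2.65, SE 0.72, 0.00265), goblet cells (−2.46, SE 0.60, 0.00143) and ISC/proliferating cells (−1.84, SE 0.59, 0.00781). All of these comparisons share the enterocyte sums. Against early enterocytes the log2 fold change was −0.24 (SE 0.54, edgeR adjusted p = 0.751). Each of the 5 calls was lost by DESeq2 (adjusted p from 0.0599 to 0.376), without the library block (0.0747 to 0.136) and without the ileum (0.0961 to 0.841).

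Duoxa2 was also highest in enterocytes of the ileum, with 0.722 UMIs per 10000 in enterocytes, 0.288 in early enterocytes, 0.160 in ISC/proliferating cells, 0.142 in EECs, 0.105 in goblet cells, 0.0879 in tuft cells, 0.0782 in T cells and 0.0557 in B cells. It was lower than in enterocytes in T cells (log2 fold change −3.37, SE 0.93, edgeR adjusted p = 0.00244), tuft cells (−2.71, SE 1.01, 0.0287), EECs (−2.68, SE 1.03, 0.0289) and ISC/proliferating cells (−2.20, SE 0.81, 0.0201), and these 4 calls were lost without the jejunum (0.0512 to 0.229). In goblet cells the log2 fold change was −0.92 (SE 0.79, edgeR adjusted p = 0.380). The duodenum held 12 Duoxa2 UMIs in goblet cells and 27 in early enterocytes against 4 in enterocytes, and without the duodenum the goblet value was −2.22 (edgeR adjusted p = 6.1e-04). Nos2 did not pass the filter on low counts in the class comparison. Its ileal levels were 0.467 in enterocytes, 0.268 in early enterocytes, 0.0949 in T cells, 0.0740 in ISC/proliferating cells and 0.0219 in goblet cells, and in the duodenum 1 UMI was found in all named classes.

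Over the libraries the ranges of neighbouring classes overlapped for each of these 3 genes, from the highest to the lowest class. UMIs of Duox2 and Duoxa2 were often in the same cells. Of 1270 ileal enterocytes with a Duox2 UMI, 565 (44.5%) also had one of Duoxa2, against 5.40% of those without, and with cells thinned to 800 UMIs the shares were 17.2% and 2.22%. Nos2 was found in 13.9% of ileal enterocytes with Duox2 and in 23.2% of those without (1.32% and 3.66% thinned). Within the 4 ileal villus zones, described below, the order varied. From the lowest zone to the tip the shares were 38.2%, 27.5%, 15.3% and 7.02% with Duox2 and 34.6%, 29.9%, 12.7% and 2.78% without. Thinned, they were 11.5%, 3.85%, 2.80% and 0% against 4.74%, 5.93%, 1.48% and 0.792%. Cells with Duox2 thus had the higher share in 3 of 4 zones, and in 2 of 4 after thinning. The thinned shares with Duox2 rested on 3 of 26, 1 of 26, 3 of 107 and 0 of 238 cells, too few to order them.

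Gpx1 was lowest in enterocytes in each library. It stood at 9.37, 6.70 and 3.75 UMIs per 10000 in early enterocytes and at 8.76, 6.49 and 4.23 in ISC/proliferating cells of the 3 segments, against 0.652, 0.153 and 0.248 in enterocytes. Macrophages/monocytes (5.63, 5.01 and 8.96) lay in the same range, and B cells (1.87, 2.64 and 2.94), tuft cells (2.65, 1.68 and 1.43), goblet cells (1.78, 1.44 and 1.51), EECs (1.03, 1.19 and 1.16), T cells (0.944, 1.08 and 0.986) and IgA B cells (0.780, 0.707 and 0.751) lay lower. The 3 highest classes overlapped each other and none of the others.

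Gpx1 was called higher than in enterocytes in early enterocytes (log2 fold change 4.01, SE 0.40, edgeR adjusted p = 1.3e-08), ISC/proliferating cells (3.54, SE 0.39, 9.7e-09), goblet cells (2.27, SE 0.38, 1.6e-05), tuft cells (1.94, SE 0.38, 9.4e-05) and EECs (1.03, SE 0.38, 0.0252), in each case in 3 of 3 libraries. Against T cells its log2 fold change was 0.83 (SE 0.38, edgeR adjusted p = 0.0592). The call in EECs was lost without the jejunum (0.388), without the ileum (0.0551) and without the library block (0.0610).

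Gpx2 was highest in ISC/proliferating cells, at 3.73, 5.60 and 7.16 UMIs per 10000. By the mean of the libraries early enterocytes were next, at 0.548, 3.17 and 6.01, though in the duodenum EECs stood above them. Enterocytes stood at 0.113, 0.527 and 1.26 and EECs at 0.659, 0.987 and 1.31. Goblet cells (0.143, 0.318 and 0.451), tuft cells (0.0178, 0.0884 and 0.554) and T cells (0.0524, 0.166 and 0.314) had lower means than enterocytes. The ileum was the highest and the duodenum the lowest segment in each of these 7 classes.

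Gpx2 was called higher in ISC/proliferating cells (log2 fold change 2.91, SE 0.45, edgeR adjusted p = 2.1e-06) and in early enterocytes (2.05, SE 0.42, 3.0e-04) than in enterocytes, and lower in T cells (−2.44, SE 0.54, 2.7e-04) and tuft cells (−1.92, SE 0.51, 0.00271). The values in goblet cells (−0.76, SE 0.44, edgeR adjusted p = 0.179) and EECs (0.33, SE 0.46, 0.569) did not pass the threshold. Without the library block the calls in early enterocytes (0.0582) and tuft cells (0.0764) were lost.

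Gpx4 and Txnrd1 were both highest in enterocytes by the mean of the 3 libraries, with 1 exception among single libraries, Txnrd1 in 11 duodenal macrophages/monocytes (2.47). Gpx4 stood at 8.74, 13.6 and 8.01 UMIs per 10000 in enterocytes, at 7.18, 10.1 and 5.54 in early enterocytes, at 4.90, 5.64 and 4.55 in tuft cells, at 4.56, 5.15 and 4.60 in T cells, at 3.50, 3.26 and 2.67 in ISC/proliferating cells, at 2.84, 4.22 and 2.65 in EECs and at 2.22, 3.07 and 1.66 in goblet cells. Txnrd1 stood at 2.22, 1.79 and 1.56 in enterocytes, at 1.78, 1.52 and 1.24 in early enterocytes, at 1.15, 1.47 and 1.44 in tuft cells and at 0.664, 0.587 and 0.417 in goblet cells. At least 1 UMI of Gpx4 was found in 97.6%, 98.8% and 91.6% of enterocytes.

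Gpx4 was called lower than in enterocytes in EECs (log2 fold change −2.44, SE 0.31, edgeR adjusted p = 2.2e-07), ISC/proliferating cells (−2.44, SE 0.31, 1.0e-07), goblet cells (−2.17, SE 0.31, 1.5e-06), T cells (−1.92, SE 0.31, 3.6e-06), tuft cells (−1.59, SE 0.30, 7.6e-05) and early enterocytes (−0.76, SE 0.29, 0.0396). The call in early enterocytes was lost when any of the 3 libraries was left out (0.0837 to 0.226) and with library totals (0.219). Txnrd1 was called lower in the same classes but for early enterocytes, with log2 fold changes from −1.98 in EECs (SE 0.29, 1.5e-06) to −0.98 in tuft cells (SE 0.27, 0.00330), where it was lost with library totals (−0.40, 0.237). In early enterocytes it was −0.62 (SE 0.26, edgeR adjusted p = 0.0537).

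Of the 6 tested genes of the 8, 3 were called between early enterocytes and enterocytes, where 42.5% of all 11314 genes were called. The counts were 4 for goblet cells (41.2% of all genes), 6 for tuft cells (49.3%), 5 for EECs (55.3%), 6 for ISC/proliferating cells (66.5%) and 5 for T cells (65.8%). With 6 genes, counts of this size are too coarse to be set apart from these shares. The median log2 fold change of the 6 genes was −0.25 in early enterocytes, −1.35 in goblet cells, −1.75 in tuft cells, −2.21 in EECs, −1.76 in ISC/proliferating cells and −2.20 in T cells, against medians of all genes between −0.12 and −0.03. Scaling by library totals in place of TMM moved the median of all genes by 0.31 in early enterocytes, 0.58 in tuft cells, 0.79 in EECs, 0.75 in ISC/proliferating cells and 0.85 in T cells, and the share of calls that were higher from 48.2% to 69.3%, 47.9% to 71.6%, 49.3% to 76.9%, 49.3% to 70.8% and 48.1% to 70.0%.

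**Figure D2:**
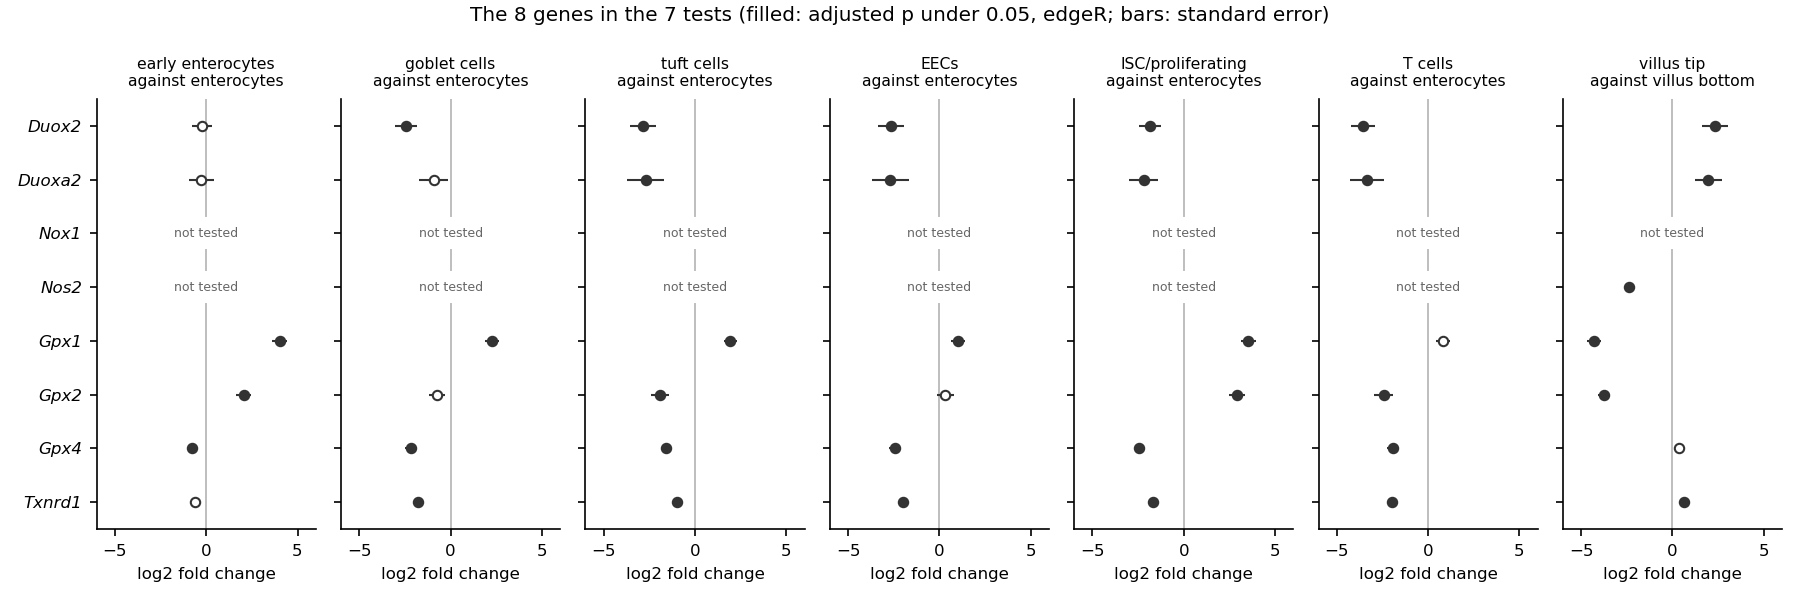
Log2 fold changes of the 8 genes in the 6 class comparisons and between villus tip and villus bottom, with standard errors as bars and filled points for an edgeR adjusted p under 0.05. Gpx1 lay above 0 in the 6 class comparisons and below 0 at the tip, whereas Duox2 lay below 0 in the class comparisons and above 0 at the tip.

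Enterocytes and early enterocytes were then placed along the villus in 4 zones of equal cell number per library, by 9 genes of the villus bottom (such as Reg3b and Lypd8) and 9 of the tip (such as Ada and Apoa4). The tip genes, summed, stood at 60.8, 126 and 18.6 UMIs per 10000 in the lowest zone and at 522, 818 and 382 at the tip. Early enterocytes made up 45.4%, 33.2% and 37.5% of the lowest zone, and the zones are ranges of a score, with 9.69% of cells within 0.05 of a limit. Of the 7 tested genes of the 8, 6 were called between tip and bottom, where 67.9% of all 11595 genes were called. Library totals in place of TMM moved the median of all genes by −0.54 and the share of calls higher at the tip from 47.0% to 25.7%.

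Duox2 and Duoxa2 stood highest at the villus tip in the ileum and the jejunum. In the ileum Duox2 had levels of 0.329 (0.301 to 0.359), 0.282 (0.248 to 0.321), 1.24 (1.17 to 1.31) and 3.15 (3.04 to 3.27) UMIs per 10000 from the lowest zone to the tip. In the jejunum these were 0.150, 0.0938, 0.126 and 0.233, and in the duodenum the 10 UMIs of 1 cell in the lowest zone were the only ones of the 4 zones. The tip was 9.59-fold above the bottom in the ileum (8.72 to 10.6) and 1.55-fold in the jejunum (1.29 to 1.86). The zone above the lowest was the lowest in both segments. By edgeR the log2 fold change between tip and bottom was 2.35 (SE 0.71, adjusted p = 0.0126), with the tip higher in 2 of 3 libraries.

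That call did not hold in several other fits. DESeq2 gave −0.05 (adjusted p = 0.981), the fit without the ileum 0.89 (0.265), without the jejunum 2.98 (0.0670) and without the library block 3.40 (0.287), while without the duodenum it was 2.67 (0.00800). With enterocytes alone, so without the duodenal cell and the other early enterocytes, it was 3.33 (SE 0.54, edgeR adjusted p = 9.7e-04).

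Duoxa2 ran alongside, at 0.219, 0.192, 0.683 and 1.59 UMIs per 10000 in the ileum, 0.105, 0.0848, 0.156 and 0.187 in the jejunum, and with 28, 1, 1 and 1 UMIs in the duodenum. The tip was 7.27-fold above the bottom in the ileum (6.45 to 8.21) and 1.78-fold in the jejunum (1.44 to 2.19). The log2 fold change was 1.95 (SE 0.73, edgeR adjusted p = 0.0352), or 3.005 (SE 0.44, 1.8e-04) with enterocytes alone. It lost its call by DESeq2 (0.22, 0.879), with library totals (1.28, 0.133), without the ileum (0.52, 0.619) or the jejunum (1.77, 0.276), without the library block (2.98, 0.266), with 3 zones (0.0588), with zones scored after thinning (0.0552) and, as an alternative added after seeing the data, with an unnamed cluster led by Fgf15 staged as well (0.0628).

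Nos2, the third oxidant source that could be tested, ran the other way. In the ileum it stood at 0.553 (0.516 to 0.591), 0.705 (0.650 to 0.764), 0.282 (0.249 to 0.319) and 0.0925 (0.0742 to 0.114) UMIs per 10000 from the lowest zone to the tip, and in the jejunum at 0.0683, 0.0449, 0.0256 and 0.00386. The duodenum held 1 UMI, so the value rests on the other libraries. The log2 fold change between tip and bottom was −2.36 (SE 0.31, edgeR adjusted p = 6.5e-05), and −3.22 (SE 0.32, 7.5e-05) with enterocytes alone, and it lost its call without the library block (−2.05, 0.514).

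Shares of ileal cells showed the same crossing. In the ileum 20.8%, 9.09%, 33.2% and 64.7% of the cells of the 4 zones had a Duox2 UMI and 35.4%, 29.7%, 13.5% and 5.53% a Nos2 UMI. Median UMIs per cell in these zones were 9818, 5247, 6366 and 7398. Thinned to 800 UMIs per cell, the shares were 2.32%, 2.32%, 9.54% and 21.2% for Duox2 and 4.90%, 5.88%, 1.60% and 0.624% for Nos2. Jejunal shares in the lowest zone and at the tip were 11.9% and 11.0% for Duox2, and 7.57% and 6.67% for Duoxa2. Thinned, they were 0.668% and 2.34% for Duox2, and 0.891% and 2.11% for Duoxa2. The ileum stood above the jejunum by 2.19-fold in the lowest zone (1.88 to 2.56) and 13.6-fold at the tip (11.9 to 15.5) for Duox2, by 2.08-fold (1.73 to 2.51) and 8.50-fold (7.31 to 9.92) for Duoxa2, and by 8.10-fold (6.66 to 9.92) and 24.0-fold (9.03 to 89.9) for Nos2, whose jejunal tip held 4 UMIs. At the ileal tip 351 of the 726 cells with Duox2 also had Duoxa2 (48.3%), against 13.1% of those without. Thinned, these shares were 18.1% and 5.20%. Of the 1122 cells of the ileal tip, 62 had Nos2.

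**Figure D3:**
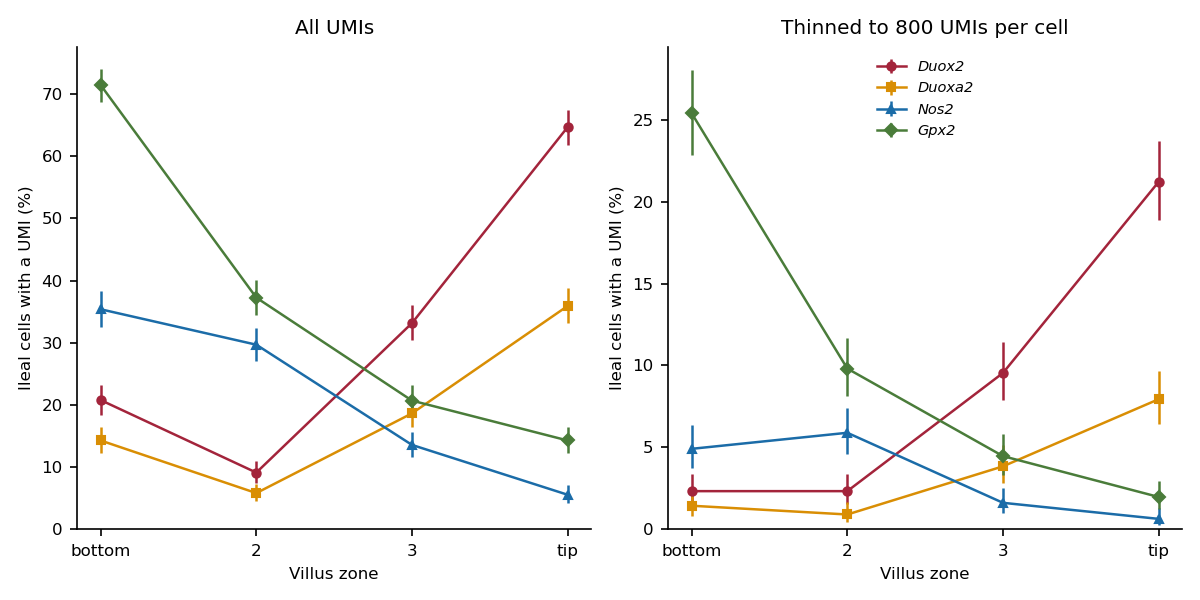
Share of ileal cells with at least 1 UMI of Duox2, Duoxa2, Nos2 or Gpx2 in the 4 villus zones, with all UMIs and with each cell thinned to 800 UMIs, and exact 95% binomial intervals as bars. Duox2 went from 20.8% to 64.7% of cells between the lowest zone and the tip, and Gpx2 from 71.5% to 14.3%.

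Gpx1 and Gpx2 were both concentrated in the lowest zone. Gpx1 stood at 5.73, 0.827, 0.431 and 0.233 UMIs per 10000 in the duodenum, at 3.34, 0.129, 0.0855 and 0.0724 in the jejunum and at 2.58, 0.237, 0.215 and 0.140 in the ileum. The largest step was from the lowest zone to the next in each segment. The log2 fold change between tip and bottom was −4.30 (SE 0.37, edgeR adjusted p = 4.7e-06), lower at the tip in 3 of 3 libraries, and −1.55 (SE 0.24, 2.2e-04) with enterocytes alone.

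Gpx2 stood at 0.406, 0.111, 0.0898 and 0.0467 in the duodenum, at 2.25, 0.567, 0.197 and 0.0579 in the jejunum and at 5.21, 1.59, 0.488 and 0.241 in the ileum. The log2 fold change was −3.77 (SE 0.32, edgeR adjusted p = 4.6e-06), lower at the tip in 3 of 3 libraries, and −3.17 (SE 0.35, 2.7e-05) with enterocytes alone. In the lowest zone the ileal level was the highest of the 3 segments for Gpx2 and the lowest for Gpx1. At the tip the ileal level of Gpx2 was again the highest. There the duodenum (40 UMIs, 0.0334 to 0.0636) and the jejunum (60 UMIs, 0.0442 to 0.0745) had overlapping intervals. For Gpx1, the ileum lay below the jejunum in the lowest zone (2.58 against 3.34) and above it in the others, as in enterocytes as a whole.

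Gpx4 and Txnrd1 differed less than 2-fold between the lowest zone and the tip of each segment. Gpx4 went from 8.07 to 9.03 UMIs per 10000 between the lowest zone and the tip in the duodenum, from 12.1 to 10.8 in the jejunum and from 7.11 to 4.43 in the ileum, with the highest level in the second zone (15.2 and 10.9) in the latter segments. Its log2 fold change was 0.34 (SE 0.20, edgeR adjusted p = 0.150), and −0.19 with library totals. Txnrd1 went from 1.97 to 2.36 in the duodenum, from 1.54 to 1.60 in the jejunum and from 1.34 to 1.31 in the ileum, with a log2 fold change of 0.64 (SE 0.13, edgeR adjusted p = 0.00129) that with library totals was 0.10 (0.506). On the level scale the tip of Txnrd1 was thus above the bottom in the duodenum, and in the others the interval of the fold held 1 (0.974 to 1.10 in the jejunum and 0.915 to 1.05 in the ileum).

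**Figure D4:**
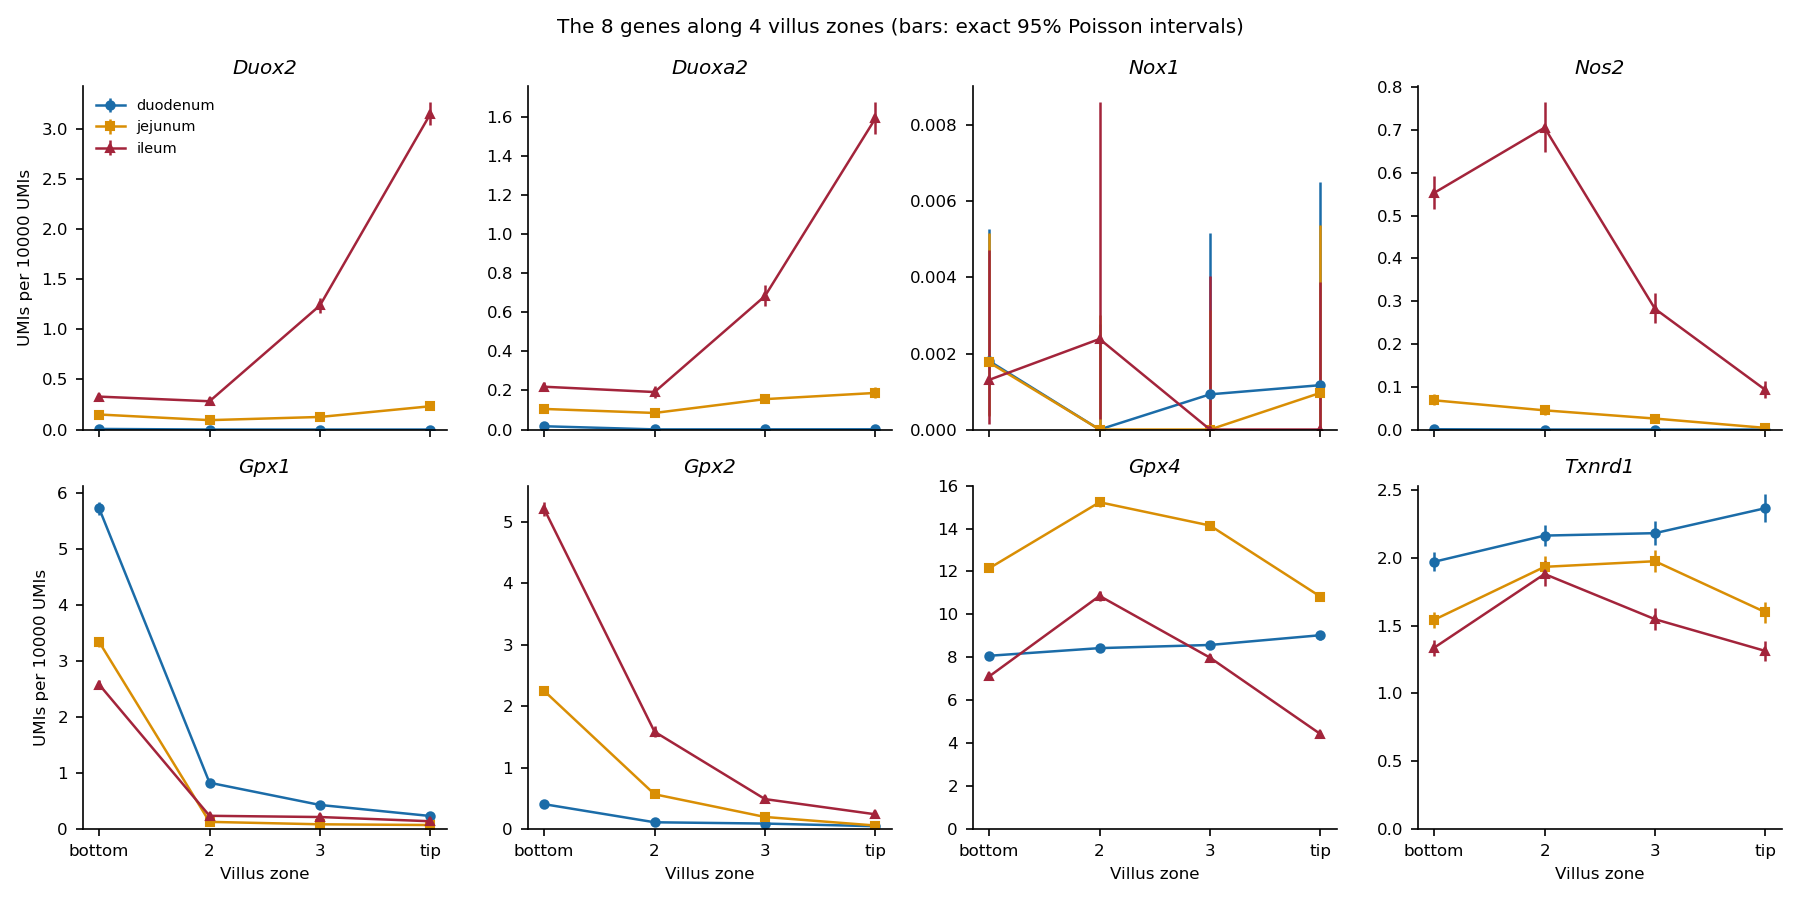
Levels of the 8 genes in 4 villus zones of each library, in UMIs per 10000 UMIs with exact 95% Poisson intervals as bars, each panel on its own linear axis from 0. Duox2 and Duoxa2 were highest at the ileal tip, at 3.15 and 1.59, whereas Gpx2 was highest in the lowest ileal zone, at 5.21, and Gpx1 in the lowest duodenal zone, at 5.73.

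The UMIs were spread unevenly over the ileal enterocytes. The tenth of the cells with most UMIs of a gene, 407 cells, held 65.5% of the UMIs of Duox2, 86.9% of Duoxa2, 72.5% of Nos2 and 76.7% of Gpx2, against 33.5% of Gpx4. The most in 1 cell were 22 UMIs of Duox2, 47 of Duoxa2, 22 of Nos2, 146 of Gpx2 and 86 of Gpx4. Gpx4 was found in 3724 of the 4066 ileal enterocytes, the most of the 8 genes. Txnrd1 was found in 2437, and the 407 cells with most of its UMIs held 37.8% of them. Duox2 (1270 cells), Duoxa2 (716), Nos2 (825) and Gpx2 (1201) were found in a minority of the cells at this depth. How far these shares follow the level of each gene was not tested.

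Genes of like pattern were ranked by Pearson's r of log2 levels over the 31 sums of a class and a library, which share libraries and depth, among 12721 genes. The gene most like Duox2 was Duoxa2 (r = 0.87), followed by Fam151a (0.87) and Slc5a8 (0.87), and the one most like Duoxa2 was Nos2 (0.90), then Gm48683 and Nbl1 (both 0.89). Nos2 was most like Tie1 (0.93), Slc25a48 and Abi3bp (both 0.92). Nos2 levels in goblet, tuft, ISC/proliferating, T and B cells and EECs were at most 0.0949, under the 0.1 added to levels. Duoxa2 levels were also under 0.1 in tuft, T, B and IgA B cells and macrophages/monocytes (at most 0.0879). The same held for duodenal enterocytes, early enterocytes and goblet cells (at most 0.0453). The r values of Nos2 and Duoxa2 thus rest mostly on few sums. Tie1 (194 UMIs) and Gm48683 (132 UMIs) were also low. The sums hold no villus zones, along which Duoxa2 and Nos2 ran in opposite directions. Gpx1 was most like Mrpl17 (0.84), Slco2b1 (0.81) and Trap1 (0.78), and Gpx2 most like Plce1 (0.87), Aldh1b1 (0.85) and Ccnjl (0.84). Gpx4 was most like Acsl5, Mdh1 and Abhd17a (all 0.90), and Txnrd1 most like the mitochondrial genes mt-Co1 (0.92) and mt-Co2 (0.90), and Sptbn1 (0.90). Between the genes themselves r was 0.83 for Gpx4 and Txnrd1 and 0.24 for Gpx1 and Gpx2.

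The other genes of the same chemistry were taken from 6 lists of 60 genes. Between villus tip and bottom 46 could be tested, of which 15 were higher and 25 lower at the tip, with a median log2 fold change of −0.81 against −0.09 over all genes. Of all 11595 genes 31.9% were higher and 36.0% lower. In the thioredoxin and peroxiredoxin system 1 of 12 was higher and 8 lower, and in the Nrf2 pathway, which switches on genes against oxidants, 1 of 6 was higher and 5 lower. Of the NADPH oxidase subunits and other oxidant sources 5 of 15 could be tested, with 2 higher and 2 lower. The other glutathione peroxidases and the glutathione synthesis genes had 5 of 7 higher and 2 lower, the selenoprotein genes 6 of 13 higher and 7 lower, and the superoxide dismutases and catalase 1 of 3 lower. The shift of −0.54 with library totals is larger than the medians of the oxidant sources (0.33) and of the superoxide dismutases and catalase (0.21), so their sign depends on the scaling.

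Among these genes the largest changes toward the tip were in Hmox1, heme oxygenase (log2 fold change 5.02, SE 0.85, edgeR adjusted p = 4.0e-04), Gpx3, the secreted glutathione peroxidase (4.15, SE 0.48, 3.1e-05), and Selenop, which carries selenium in plasma (2.54, SE 0.28, 2.1e-05). Hmox1 went from 4, 2 and 6 UMIs in the lowest zone to 201, 23 and 9 at the tip, so that it was mostly duodenal. Gpx3 went from 0.00541, 0.00530 and 0.00261 to 0.0362, 0.110 and 0.0336 UMIs per 10000, and Selenop from 21.8, 49.9 and 19.8 to 80.0, 125 and 140. The largest toward the bottom were in Prdx4, the peroxiredoxin of the endoplasmic reticulum (−4.42, SE 0.39, 5.8e-06), Pstk, a kinase of selenocysteine synthesis (−4.01, SE 0.55, 9.1e-05), and Gsta4, a glutathione transferase for lipid aldehydes (−3.60, SE 0.56, 2.1e-04). Gsta4 stood at 4.24, 0.886 and 0.330 in the lowest zone and at 1.04, 0.0193 and 0.00736 at the tip.

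The partners of NOX1 and the sister genes of the Duox pair were also counted. Noxo1, the organizer of the NOX1 complex, stood at 0.362, 0.294 and 0.589 in the lowest zone and at 0.154, 0.0338 and 0.0820 at the tip (log2 fold change −1.81, SE 0.26, edgeR adjusted p = 1.2e-04). Cyba, the p22phox subunit, went from 0.218, 0.391 and 1.40 to 0.0759, 0.0647 and 0.301 (−1.59, SE 0.17, 1.8e-05). Duox1 and Duoxa1 had between 0 and 7 UMIs in any of the lowest and tip zones, so the second pair of dual oxidase genes was at or near 0 where Duox2 was counted. Noxo1, Cyba, Duox1 and Duoxa1 were named after their values were seen.

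**Figure D5:**
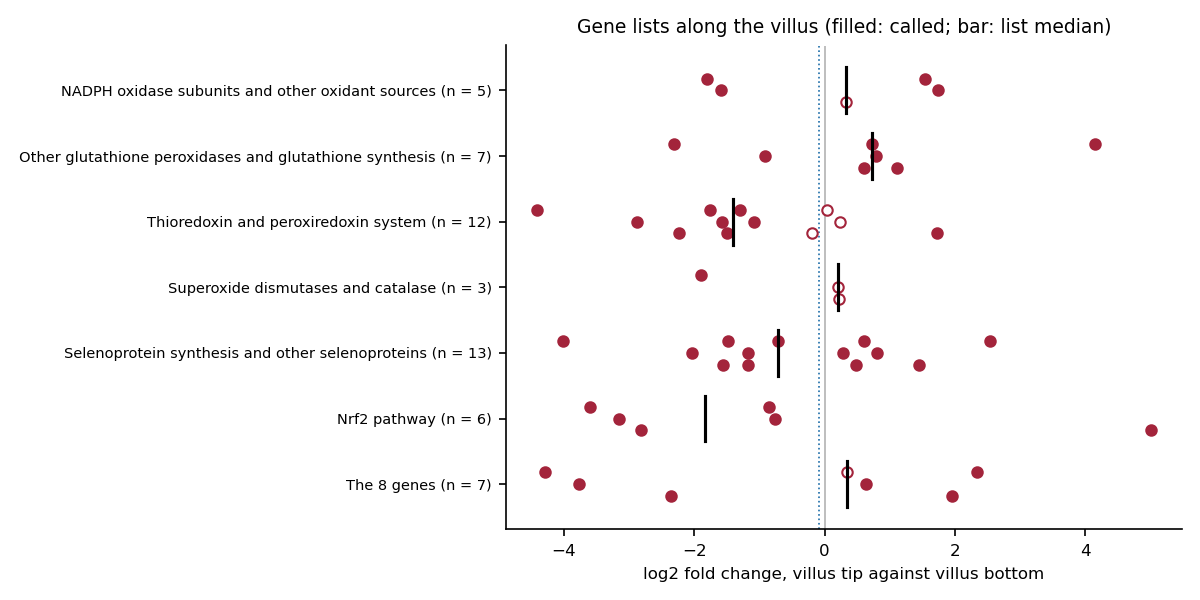
Log2 fold changes between villus tip and villus bottom for the tested genes of the 6 lists and of the 8 genes, with filled points for an edgeR adjusted p under 0.05, black bars for the median of each list and a dotted line for the median of all 11595 genes (−0.09). The medians of the thioredoxin and peroxiredoxin list and of the Nrf2 list lay lowest.

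Of 50 genes tested, 18 were higher and 12 lower in early enterocytes, 10 and 19 in goblet cells, 8 and 20 in tuft cells, 7 and 25 in EECs, 15 and 18 in ISC/proliferating cells and 11 and 26 in T cells, with median log2 fold changes of 0.19, −0.52, −0.28, −0.72, −0.17 and −0.80. Over all 11314 genes, 20.5% were higher and 22.03% lower in early enterocytes, 18.7% and 22.6% in goblet cells, 23.6% and 25.6% in tuft cells, 27.3% and 28.0% in EECs, 32.8% and 33.8% in ISC/proliferating cells and 31.6% and 34.2% in T cells. In tuft cells, EECs, ISC/proliferating cells and T cells the medians are smaller in size than the shift that library totals gave, so their sign there depends on the scaling. In early enterocytes 6 of 11 genes of the thioredoxin and peroxiredoxin system were higher and 2 lower. Prdx4 (3.96, SE 0.39, edgeR adjusted p = 8.8e-09) and Prdx6 (2.14, SE 0.42, 1.8e-04) were among the highest there, and Selenop (−3.30), Hmox1 (−2.90) and Gpx3 (−2.71) the lowest. The lowest villus zone holds early enterocytes, so that this comparison and that of the zones share cells.

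Gpx3 and Ncf1 were among the highest genes of single classes. Gpx3 stood at 13.5, 6.57 and 1.09 UMIs per 10000 in EECs of the 3 segments against 0.0135, 0.0402 and 0.0181 in enterocytes (log2 fold change 7.21, SE 0.62, edgeR adjusted p = 6.0e-10), beside Prdx4 (2.66). In tuft cells Cybb, the catalytic subunit of the phagocyte oxidase (3.19, SE 0.94, 0.00586), rested on 0, 0 and 8 UMIs against 6, 2 and 17 in the more numerous enterocytes, and Hmox1 (2.88, SE 0.67, 8.2e-04) was also higher. Ncf1, the p47phox subunit, stood at 0.262, 0.961 and 0.724 in T cells (6.93, SE 0.41, 3.0e-13), beside Ncf4 (4.19) and Selenoh (3.67). In ISC/proliferating cells Prdx4 (5.94, SE 0.42, 3.1e-12) and Selenoh (4.41) were highest, with Prdx4 at 1.38, 1.04 and 0.777. In goblet cells Slc7a11, the cystine carrier (6.01, SE 0.74, 7.9e-07), rested on 3, 2 and 35 UMIs, and Gsta4 (3.14) followed.

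Among the genes with lower levels, Selenop was called lower than in enterocytes in each of the 6 classes, with log2 fold changes from −5.25 in ISC/proliferating cells to −2.93 in EECs (edgeR adjusted p from 2.2e-10 to 1.3e-06). The comparisons share the enterocyte sums. Ggt1, which splits glutathione at the cell surface, was among the lowest in goblet cells (−3.45), EECs (−3.94) and ISC/proliferating cells (−5.06), Xdh, xanthine dehydrogenase, in EECs (−4.04) and ISC/proliferating cells (−4.38), and Cat, catalase, in goblet cells (−2.94). Nqo1 (−4.20) and Srxn1 (−3.56) were among the lowest in tuft cells and Gstm1 (−3.44) in T cells. Hmox1 had 0 UMIs in EECs and Gpx3 0 UMIs in T cells of the 3 segments, too few cells for a fold to be read against the low levels of enterocytes.

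Between segments, in enterocytes, the Nrf2 pathway had 5 of 6 genes at least 2-fold lower in the ileum than in the duodenum, and the thioredoxin and peroxiredoxin system 7 of 12, beside 17.8% of all genes lower and 14.0% higher. Gsta4 was 72.3-fold lower (59.5 to 88.8), Gstm1 11.0-fold (9.41 to 12.9) and Hmox1 8.90-fold (5.63 to 14.9). On the other side Cyba, Rac1 and Msrb1 were at least 2-fold higher in the ileum. Against the jejunum, Cyba was 4.24-fold higher in the ileum (3.87 to 4.66), with Gclc, Gsr and Msrb1, and Gsta4 (6.34-fold), Gstm1 (4.95-fold), Prdx6 (2.83-fold) and Gpx3 (2.21-fold) were lower, where 12.1% of all genes were higher and 6.56% lower. Between jejunum and duodenum 10 genes of the lists were at least 2-fold lower in the jejunum, led by Gsta4 (11.4-fold), Hmox1 (6.59-fold) and Nqo1 (4.18-fold), and Gpx3 alone was higher, beside 14.3% of all genes lower and 7.12% higher. The depth and the mitochondrial share of the libraries ran with the segments, and their part in these differences was not tested beyond totals without mitochondrial genes and cells with at most 20% mitochondrial UMIs. In those cells Duox2 was at least 359-fold higher and Gpx1 3.65-fold lower in the ileum than in the duodenum, and Gpx2 was 1.61-fold higher in the jejunum than in the duodenum, under the 2-fold limit.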

How the data were processed

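The authors made the deposited counts with Cell Ranger 3.0.2 (GRCm38/mm10) from 10x 3′ v3 libraries, as whole UMI counts per gene and barcode, not normalized. Of 27235 barcodes, 16686 were kept: those with a UMI total of 800 to 50000, between 200 and 6000 genes detected and no more than 40% of UMIs from mitochondrial genes. They held 57079945, 58186946 and 66148396 UMIs in duodenum, jejunum and ileum. Cells were integrated over libraries with Seurat 5.3.0 (2000 variable genes without the redox genes, 30 components, resolution 0.8) and clusters were named by marker lists. Scrublet (scanpy 1.11.5) marked 0, 0 and 146 cells as doublets, all kept, and in the duodenum and jejunum it has not worked. UMIs were summed per library and class (30 sums of 10 or more cells, without Paneth cells) or zone (12 sums) and tested by edgeR 4.0.16 (TMM, filterByExpr, R 4.3.3), with DESeq2 1.42.0 as an alternative beside other filters, scalings, clusterings, zone scores and left-out libraries. The procedure was tested on simulated data with 2-fold changes in a set of genes. It called 66.0% of these between tip and bottom, 52.9% in early enterocytes and 39.0% in ISC/proliferating cells. In goblet cells it called 31.1%, in tuft cells 27.0%, in T cells 21.7% and in EECs 19.4%. False calls numbered 0 to 5 per comparison. A gene without a call can therefore still differ 2-fold. The 8 genes, the lists and the tests were chosen with earlier results of these data known. Named pathway genes are the 3 largest calls in each direction of a comparison (1 gene is not reported here), and genes of like pattern the 3 highest r among genes with at least 100 UMIs, with 0.1 added to levels. Nox1 was under every test's filter.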

Additional observations from a re-analysis of the deposited data

Results flagged for a closer look

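Segments moved in opposite directions for the genes of this paragraph, and none of these differences was tested, since each segment is 1 library. Between villus tip and bottom, Duox2 was 1.549-fold in the jejunum and 9.587-fold in the ileum, against 0 UMIs at the tip and 10 in 1 cell at the bottom of the duodenum. Duoxa2 was 1.777-fold and 7.267-fold there, against 0.06935-fold in the duodenum (1 and 28 UMIs). Gpx4 was 1.119-fold in the duodenum, 0.8913-fold in the jejunum and 0.6226-fold in the ileum. Between early enterocytes and enterocytes, Duox2 was at least 14.39-fold in the duodenum, counted against a floor of 3 UMIs, and 1.906-fold in the jejunum, but 0.2956-fold in the ileum. Duoxa2 was 29.14-fold in the duodenum (27 and 4 UMIs) and 0.3984-fold in the ileum. Between goblet cells and enterocytes, Duoxa2 was 45.27-fold in the duodenum (12 and 4 UMIs) against 0.4656-fold in the jejunum and 0.1458-fold in the ileum, and between tuft cells and enterocytes 35.53-fold in the duodenum (2 and 4 UMIs) against 0 and 0.1216-fold.

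Clusters that got no name, and so entered no comparison, also held UMIs of these genes. A cluster led by Gm26917, Fgf15 and Fabp6 (106 duodenal, 192 jejunal and 647 ileal cells) had levels above every named class of at least 10 cells of the same library in the jejunum for Duox2 (0.8159 UMIs per 10000), Duoxa2 (0.5983) and Nos2 (0.2409), in the ileum for Nos2 (0.8869), Gpx4 (9.898) and Txnrd1 (1.875), and in the duodenum for Gpx4 (13). In the ileum this cluster stood at 0.679 (0.593 to 0.773) for Duox2 and 0.440 (0.372 to 0.517) for Duoxa2. Neither was above its jejunal level, and the counting intervals of jejunum and ileum overlapped for both genes. A cluster led by Gp2 and Ccl20 (28 ileal cells) had 2.413 for Duox2 and 1.011 for Nos2 in the ileum, also above every named class there. Set only beside enterocytes of the same library, the first cluster was also higher for Gpx1 (8.55, 4.51 and 2.92 UMIs per 10000 against 0.652, 0.153 and 0.248) and, in the jejunum and ileum, for Gpx2 (4.65 and 3.41 against 0.527 and 1.26). The second had 4.53 for Gpx1 (enterocytes 0.248) and 1.01 for Duoxa2 (enterocytes 0.722, within its interval of 0.687 to 1.43). Its 3 duodenal cells held 8 UMIs of Duox2, 5 of Duoxa2 and 3 of Nos2, each in 1 cell.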

How the results depend on the processing

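Over all alternatives, 520 of 597 test values of the 8 genes kept their side of the threshold, 60 lost the call, 16 gained one and 1 reversed. A change of sign was counted as a reversal only where the main or the alternative fit had a call. The 520 thus include uncalled values that changed sign, such as Gpx4 between villus tip and bottom with library totals. The reversed value was Duox2 between villus tip and bottom by DESeq2 (−0.0456, adjusted p = 0.981). In the duodenum that gene had 10 UMIs at the bottom and 0 in the other zones, and the cause was not tested. The calls between tip and bottom went from 7875 genes to 4739 without the library block. Leaving out 1 library gave 2697 to 4716 calls for early enterocytes (4812 with all) and 3042 to 4324 for goblet cells (4665 with all), with the lowest counts without the jejunum. Within the villus bottom alone, genes at least 2-fold apart went from 3645 to 2019 between ileum and duodenum and from 2452 to 1068 between jejunum and duodenum. Of 126 segment values of the 8 genes, 76 moved past their counting interval. Without integration early enterocytes were named almost only in the ileum (0, 1 and 532 cells), so that comparison has no value there. Staging with the Fgf15 cluster, and leaving out the 10% of cells with most enterocyte marker UMIs, were chosen after seeing the data. Nox1 had too few UMIs to compare in any class. No paired analysis was possible because each segment has 1 library, while classes and zones were compared within libraries through the block.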
